A study of Rattus norvegicus with 12 samples.

Results

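Expression of 9 genes of the interleukin-1 (IL-1), tumour necrosis factor (TNF) and NF-kappaB feedback system was measured in rat liver: Il1b, Il1r1, Il1r2, Il1rn, Tnf, Nfkbia, Tnfaip3, Zfp36 and Nlrc4. They were found by gene name on the array. Of the 9 genes, 8 had a probe by that name, with 12 probes of 41012 in all. Tnfaip3 had none and was not analysed here. Nlrc4 was carried under an older name, Card12, on a predicted gene model. After the filter on dim probes 11 of these probes remained, standing for 7 of the 24298 genes tested. The probe of Tnf was not well above background on any of the 12 arrays, so Tnf has values but no test.

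All rats were adrenalectomized Sprague-Dawley animals aged 8 to 10 weeks, and females were in diestrus 1. There were 4 groups: male vehicle and female vehicle, given phosphate-buffered saline, and male dexamethasone and female dexamethasone, given the synthetic glucocorticoid dexamethasone at 1 mg/kg intraperitoneally. Liver was taken 6 h later. Each group had 3 single-colour arrays, and the RNA of 3 rats was mixed for every array, 9 rats to a group. Each p-value therefore rests on the spread between pools and not between animals. Adrenalectomy, which removes the main source of corticosterone, was shared by the vehicle and the dexamethasone groups, so no group had intact adrenals.

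IL-1 beta and TNF are cytokines made mainly by macrophages. Bound to their receptors, they lead through adaptor proteins to the release of NF-kappaB transcription factors from inhibitory IkappaB proteins. NF-kappaB then raises genes that shut the response down again, among them the IkappaB alpha gene Nfkbia and the ubiquitin-editing enzyme gene Tnfaip3, while the decoy receptor and the receptor antagonist limit IL-1 outside the cell. In the liver, Kupffer cells are the resident macrophages, and glucocorticoids are classical inhibitors of this system.

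The array measures each transcript with 60-base probes. The probes shown here are a choice of those the results turn on: Nfkbia, which rose with the smallest error, Il1r1 and Il1r2, which rose, the dimmer Il1rn probe, which differed from its partner, and Tnf, which was not detected. Each is written 5′ to 3′ as the array files give it, all in lower case.
Nfkbia: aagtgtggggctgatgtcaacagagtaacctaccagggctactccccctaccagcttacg
Il1r1: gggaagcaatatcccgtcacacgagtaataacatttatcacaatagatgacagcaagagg
Il1r2: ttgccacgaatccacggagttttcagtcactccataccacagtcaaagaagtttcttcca
Il1rn: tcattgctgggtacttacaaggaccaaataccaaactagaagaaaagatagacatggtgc
Tnf: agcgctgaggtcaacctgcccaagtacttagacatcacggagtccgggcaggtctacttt

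Upstream sequence was read for 7 of the 9 members from RefSeq (build GRCr8) as the 250 bases before the listed start. A match to the kappaB consensus, the letters that NF-kappaB dimers are known to bind, was found in 3 of these 7 windows, against 6.33% of 33469 windows of the same length. Nfkbia and Il1r1, which rose, each had 1 match, and Tnfaip3, which was not measured, had 3. Zfp36, which also rose, had none, nor had Il1b, Il1rn or Tnf. The matches are shown as 30-base stretches with the matching letters in capitals.
Nfkbia, chr6:78597084-78597113, minus strand: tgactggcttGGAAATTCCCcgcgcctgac
Il1r1, chr9:50034238-50034267, plus strand: cagagaccctGGAATGCCCCgcagggatgt
Tnfaip3, chr1:15544130-15544159, minus strand: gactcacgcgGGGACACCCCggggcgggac
Tnfaip3, chr1:15544021-15544050, minus strand: gactGGAAAGTCCCtcGGAAATCCCCctgt
The Nfkbia match lay 31 to 22 bases before the listed start and the Il1r1 match 135 to 126 bases before it. For both genes the listed start lies inside the annotated gene, which begins further upstream. Of the 250 bases, 235 for Nfkbia and all 250 for Il1r1 fell within the gene. All 250 bases of the Il1rn window, which had no match, also fell within its gene. The window of Il1b, which fell, is shown as one without a match; Nlrc4, which also fell, has no entry in the sequence table.
Il1b, chr3:137036582-137036831, minus strand: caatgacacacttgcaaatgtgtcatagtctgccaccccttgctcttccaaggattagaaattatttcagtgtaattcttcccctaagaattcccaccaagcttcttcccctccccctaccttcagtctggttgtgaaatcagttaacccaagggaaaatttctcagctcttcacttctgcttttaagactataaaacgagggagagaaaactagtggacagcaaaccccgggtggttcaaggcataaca
Both strands were searched for every motif. The palindromic glucocorticoid response element was in 0 of 7 member windows and 0.012% of all, and its half-site AGAACA, which it contains, was in 0 of 7 and 17.5% of all. The AP-1 motif TGANTCA was in 1 member window (Tnfaip3) and 6.34% of all. A match is only a description of the letters, and a window without one holds only no such letters in these 250 bases.

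Values are given as normalized log2 intensities, log2 of the scanner signal minus the array's 75th percentile, so 0 is the 75th percentile of that array and negative values are dimmer. Differences of these values between groups are log2 differences, written with their standard error (SE). A gene was called when its adjusted p was under 0.05 (limma, Benjamini-Hochberg over all 24298 genes). The share of spots well above background ran from 53.0% to 69.7% per array, and the 4 arrays of slide 5 (replicate 3 of each group) were the dimmest, at 53.0% to 61.8%. All 7 hepatocyte markers of the list (Alb, Apoa1, Ttr, Tf, Fgb, Hnf4a, Asgr1) were measured in every group and none was called in either sex by limma (at an unadjusted p under 0.05, 1 of 7 in males and 2 of 7 in females).

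Dexamethasone changed 6 of the 7 tested members in males and 6 of 7 in females. In both sexes 4 rose (Nfkbia, Zfp36, Il1r1 and Il1r2) and 2 fell (Il1b and Nlrc4), and Il1rn was not called. Over all genes, 20.1% were called in males and 24.4% in females. By direction, 9.34% of all genes were called higher and 10.8% lower in males, and 11.7% higher and 12.6% lower in females. With array medians in place of the 75th percentile, which moved the median female difference of all genes from -0.08 to 0.13, the female calls over all genes were 3787 higher and 2019 lower in place of 2850 and 3069, while the directions of the called members stayed as given. The members were known to respond when they were chosen, so their share above this background is a description. The 6 called members were also those whose 3 dexamethasone arrays did not overlap with the 3 vehicle arrays, in each sex. How many of all genes lacked such overlap was not counted, so this describes the same values and adds no support. For Il1r2 in females the vehicle readings were all below detection.

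**Figure D1:**
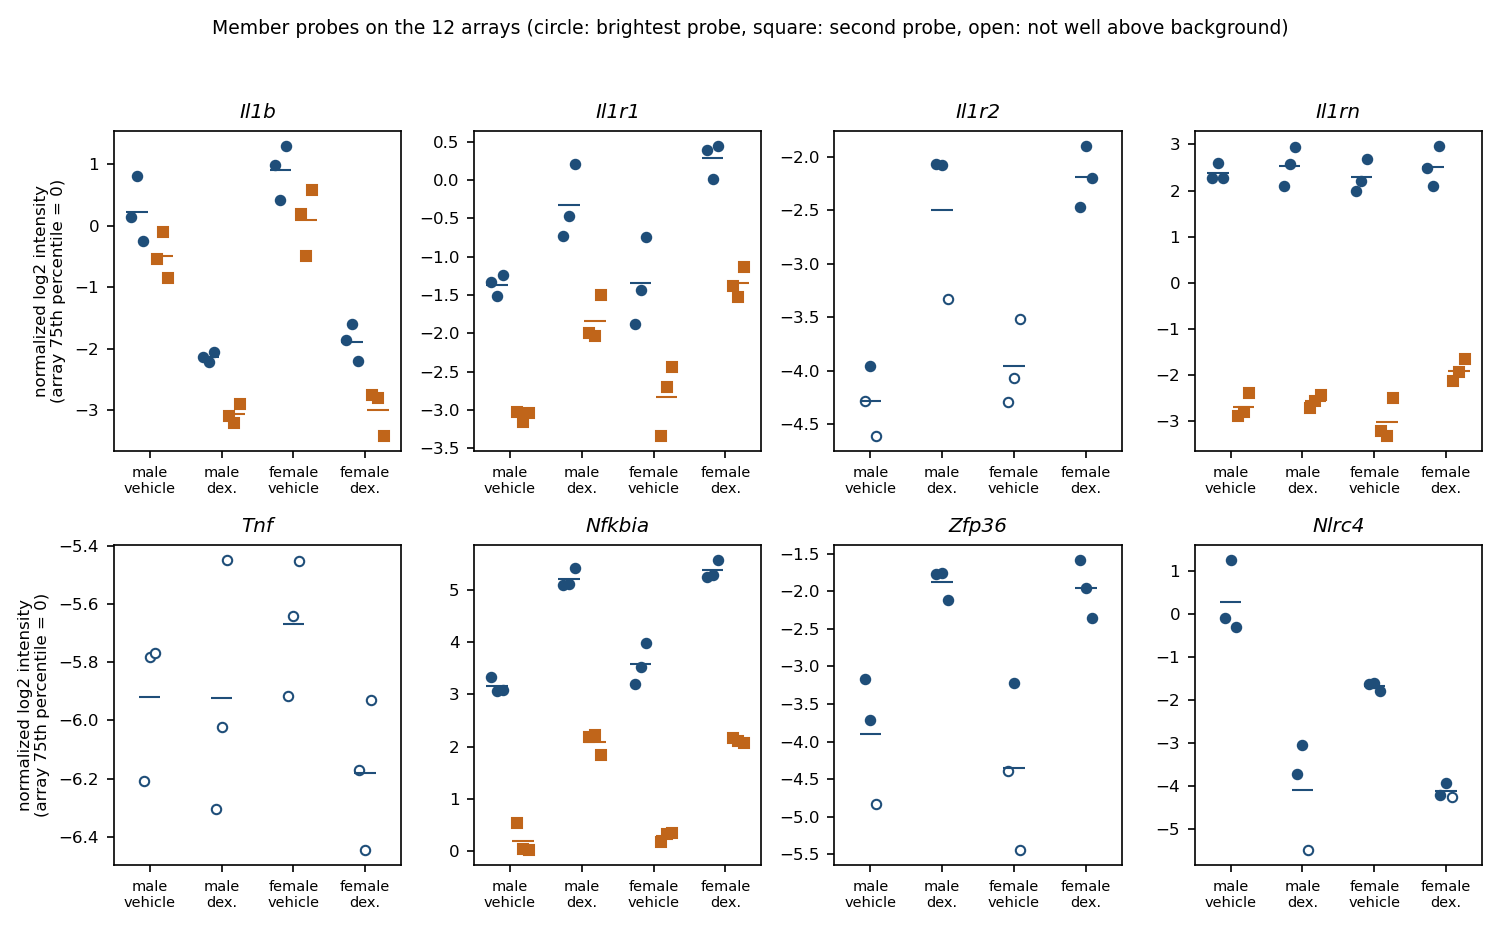
Normalized log2 intensity (vertical axis, 0 at the array's 75th percentile, a different range in each panel) of every probe of 8 members on the 12 arrays, by group (horizontal axis). Circles are the brightest probe of a gene, squares its second probe, open symbols arrays where the probe was not well above background, and lines the means of 3 arrays. Il1b and Nlrc4 lie lower, and Nfkbia, Zfp36, Il1r1 and Il1r2 higher, on dexamethasone than on vehicle arrays of the same sex, and Tnf is open on all 12.

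Among the ligands, Il1b, which encodes the cytokine IL-1 beta, fell in both sexes. On its brightest probe the male vehicle arrays read 0.14, 0.81 and -0.25 and the male dexamethasone arrays -2.13, -2.21 and -2.06. The dexamethasone values lay close together, below all vehicle values. In females the vehicle arrays read 0.99, 0.42 and 1.31 and the dexamethasone arrays -1.86, -1.60 and -2.20. The groups did not overlap in either sex. In males Il1b fell by 2.37 ± 0.30 (SE, n = 3 arrays per group; limma adjusted p = 0.000383), a 5.15-fold lower level, and in females it fell by 2.79 ± 0.30 (adjusted p = 0.000142), a 6.93-fold lower level. The second Il1b probe fell by 2.57 ± 0.30 in males and by 3.09 ± 0.30 in females. In order of level, the dexamethasone groups of males (-2.13 ± 0.07, SD) and females (-1.89 ± 0.30) were lowest and were not called different (adjusted p = 0.75), followed by male vehicle (0.23 ± 0.54) and female vehicle (0.91 ± 0.45), whose arrays overlapped (adjusted p = 0.485).

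The probe of Tnf, the gene of the cytokine TNF, was not well above background on any array. Its normalized values ran from -6.21 to -5.77 in male vehicle, -6.31 to -5.45 in male dexamethasone, -5.92 to -5.45 in female vehicle and -6.45 to -5.93 in female dexamethasone. All lie below the lowest signal detected on their array. The female ranges did not overlap, but readings below detection carry no level, so any difference in Tnf was not detectable on these arrays.

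The IL-1 receptor genes rose. Il1r1 encodes the signalling receptor of IL-1. On its brightest probe the male vehicle arrays read -1.33, -1.52 and -1.25 and the male dexamethasone arrays -0.73, -0.47 and 0.21. The female vehicle arrays read -1.88, -1.43 and -0.74 and the female dexamethasone arrays 0.39, 0.01 and 0.45. All dexamethasone arrays were above all vehicle arrays of their sex, with the widest gap in females. In males Il1r1 rose by 1.03 ± 0.31 (limma adjusted p = 0.0395), a 2.05-fold higher level, and in females by 1.63 ± 0.31 (adjusted p = 0.00398), a 3.09-fold higher level. The second Il1r1 probe rose by 1.23 ± 0.24 in males (adjusted p = 0.00535) and by 1.48 ± 0.24 in females (adjusted p = 0.00179). By level, male vehicle (-1.37 ± 0.14, SD) and female vehicle (-1.35 ± 0.58) were lowest and not called different (adjusted p = 0.996), male dexamethasone (-0.33 ± 0.49) followed, and female dexamethasone (0.28 ± 0.24) was highest, the last pair not called different either (0.61 ± 0.31, 95% interval -0.08 to 1.30, adjusted p = 0.384).

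The male call of Il1r1 on the brightest probe was the weakest of the called differences. It ended with array medians as the scale (1.08, limma adjusted p = 0.0579) and without the filter on dim probes (1.03, adjusted p = 0.0688). Leaving out single arrays also ended it, with 1.05 (adjusted p = 0.0802) when male vehicle 1 was omitted, 0.96 (0.107) for male vehicle 2, 1.09 (0.0743) for male vehicle 3, 1.11 (0.0684) for male dexamethasone 2, 0.76 (0.136) for male dexamethasone 3, 1.03 (0.0554) for female vehicle 2 and 1.03 (0.0565) for female dexamethasone 1.

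Il1r2 encodes the decoy receptor, which binds IL-1 without signalling. Its single probe was dim, well above background on 6 of 12 arrays: male vehicle 2, male dexamethasone 1 and 2, and all 3 female dexamethasone arrays. The male vehicle arrays read -4.28, -3.95 and -4.61 and the male dexamethasone arrays -2.07, -2.08 and -3.33. The female vehicle arrays read -4.29, -4.06 and -3.52 and the female dexamethasone arrays -2.47, -1.89 and -2.19. In each sex all dexamethasone arrays lay above all vehicle arrays, and male dexamethasone 3 stood lowest of the dexamethasone arrays. In males Il1r2 rose by 1.79 ± 0.36 (limma adjusted p = 0.00528), a 3.46-fold higher level as read. It was 2.94-fold higher with the 3 undetected male arrays raised to the lowest detected signal where they read below it. This setting was chosen after seeing the data. Female vehicle was not well above background on any array, so the female fold is a bound. Il1r2 was at least 3.30-fold higher in female dexamethasone. For this, each female vehicle array was taken at the higher of its own reading and the lowest signal detected on it. The fitted difference was 1.77 ± 0.36 (limma adjusted p = 0.00521, group means -2.19 and -3.96). That fit uses the undetected vehicle readings as read, so its p does not test the bound. By level, male vehicle (-4.28 ± 0.33, SD) and female vehicle (-3.96 ± 0.40) came lowest and male dexamethasone (-2.49 ± 0.72) and female dexamethasone (-2.19 ± 0.29) highest, and neither pair of sexes was called different (adjusted p = 0.867 and 0.733).

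Il1rn encodes the IL-1 receptor antagonist, a soluble competitor of IL-1. Its 2 probes gave different results. On the bright probe the male vehicle arrays read 2.27, 2.61 and 2.28, the male dexamethasone arrays 2.09, 2.57 and 2.93, the female vehicle arrays 2.0, 2.20 and 2.67 and the female dexamethasone arrays 2.49, 2.10 and 2.97. All 4 groups overlapped. The log2 difference was 0.15 ± 0.29 in males (95% interval -0.49 to 0.78, limma adjusted p = 0.797) and 0.23 ± 0.29 in females (-0.40 to 0.86, adjusted p = 0.596). On the dim probe, whose sequence is printed above, the male vehicle arrays read -2.88, -2.79 and -2.38 and the male dexamethasone arrays -2.71, -2.57 and -2.42. The female vehicle arrays read -3.22, -3.33 and -2.50 and the female dexamethasone arrays -2.12, -1.92 and -1.66. Here the male groups overlapped and the female groups did not. The dim probe rose by 1.12 ± 0.24 in females (adjusted p = 0.00789), a 2.17-fold higher level, with 0.12 ± 0.24 in males (adjusted p = 0.809). The difference between the sexes' effects on this probe was 1.00 ± 0.34 (95% interval 0.24 to 1.76), and it did not pass the threshold (adjusted p = 0.405).

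Among the inhibitors, Nfkbia rose with the smallest error of the members. It encodes IkappaB alpha, which holds NF-kappaB in the cytoplasm. On its brightest probe the male vehicle arrays read 3.33, 3.06 and 3.08 and the male dexamethasone arrays 5.09, 5.11 and 5.43. The female vehicle arrays read 3.21, 3.53 and 3.99 and the female dexamethasone arrays 5.25, 5.28 and 5.58. All 6 dexamethasone arrays lay above all 6 vehicle arrays. Nfkbia rose by 2.05 ± 0.21 in males (limma adjusted p = 0.000121), a 4.14-fold higher level, and by 1.80 ± 0.21 in females (adjusted p = 0.000255), a 3.48-fold higher level. Its second probe rose by 1.89 ± 0.18 in males and 1.83 ± 0.18 in females. By level, male vehicle (3.16 ± 0.15, SD) and female vehicle (3.57 ± 0.39) were not called different (adjusted p = 0.582), nor were male dexamethasone (5.21 ± 0.19) and female dexamethasone (5.37 ± 0.18, adjusted p = 0.764).

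Zfp36 encodes tristetraprolin, which binds AU-rich elements of cytokine messengers such as that of Tnf and speeds their decay. Its probe was well above background on all 6 dexamethasone arrays, on male vehicle 1 and 2 and on female vehicle 2. The male vehicle arrays read -3.16, -3.71 and -4.83 and the male dexamethasone arrays -1.77, -1.76 and -2.11. The female vehicle arrays read -4.40, -3.22 and -5.45 and the female dexamethasone arrays -1.58, -1.96 and -2.35. The vehicle arrays were widely spread and the dexamethasone arrays close together, without overlap. Zfp36 rose by 2.02 ± 0.54 in males (limma adjusted p = 0.0231), a 4.07-fold higher level, and by 2.39 ± 0.54 in females (adjusted p = 0.00937), a 5.25-fold higher level as read. Undetected vehicle arrays (1 male, 2 female) were also raised to the lowest detected signal where they read below it. This setting was chosen after seeing the data. Zfp36 was then 3.29-fold higher in males and 3.25-fold higher in females. By level, female vehicle (-4.35 ± 1.11, SD) and male vehicle (-3.90 ± 0.85) came lowest and female dexamethasone (-1.96 ± 0.39) and male dexamethasone (-1.88 ± 0.20) highest, and neither pair of sexes was called different (adjusted p = 0.884 and 0.960). The male call ended without male vehicle 3 (1.56, adjusted p = 0.0835), male dexamethasone 1 (1.97, 0.0644) or male dexamethasone 2 (1.96, 0.0653).

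Nlrc4 encodes an inflammasome scaffold that activates caspase-1, the enzyme that matures IL-1 beta. It had the largest log2 difference of the members in males. The male vehicle arrays read -0.08, 1.27 and -0.31 and the male dexamethasone arrays -3.72, -3.04 and -5.50. The female vehicle arrays read -1.62, -1.61 and -1.79 and the female dexamethasone arrays -4.21, -3.93 and -4.25. The probe was well above background on all vehicle arrays and on 2 of 3 dexamethasone arrays of each sex, replicate 3 being the exception in both. Nlrc4 fell by 4.38 ± 0.57 in males (limma adjusted p = 0.000426), a 20.9-fold lower level as read, and by 2.46 ± 0.57 in females (adjusted p = 0.0104), a 5.50-fold lower level. The male size rests in part on male dexamethasone 3, where Nlrc4 was not detected: without that array the difference was -3.68 (adjusted p = 0.000565), and with undetected arrays held at the lowest detected signal, a setting chosen after seeing the data, Nlrc4 was 13.3-fold lower in males and 5.35-fold lower in females. By level, female dexamethasone (-4.13 ± 0.18, SD) and male dexamethasone (-4.09 ± 1.27) were lowest and not called different (adjusted p = 0.982), female vehicle (-1.67 ± 0.10) followed and male vehicle (0.30 ± 0.85) was highest. The 2 vehicle groups did not overlap, but their difference was not called: Nlrc4 was 1.97 ± 0.57 lower on the log2 scale in females than in males (female minus male -1.97, 95% interval -3.22 to -0.71, adjusted p = 0.168). Over the alternatives tried, the adjusted p of this difference ran from 0.0234 to 0.434; it was called with normexp background correction (-1.33, adjusted p = 0.0234) and without male dexamethasone 3 (-1.97, adjusted p = 0.0340).

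Another background correction moved the size of the dim members. With normexp, which adds an offset of 50 and so compresses dim signals, Nlrc4 fell by 2.05 in males and by 1.00 in females, and Il1b by 1.48 in males and by 1.96 in females. Zfp36 rose by 0.72 and 0.62, and Il1r2 by 0.60 in males, with 0.45 in females (limma adjusted p = 0.0505), while Nfkbia rose by 1.95 and 1.83. Il1r1 rose by 0.70 in males with normexp (limma adjusted p = 0.0478), in place of 1.03. In females its smallest difference over the other settings was 1.14, in place of 1.63. The fold changes of Nlrc4, Zfp36, Il1r2, Il1b and, in males, Il1r1 therefore depend on how background is treated, while their directions were the same.

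**Figure D2:**
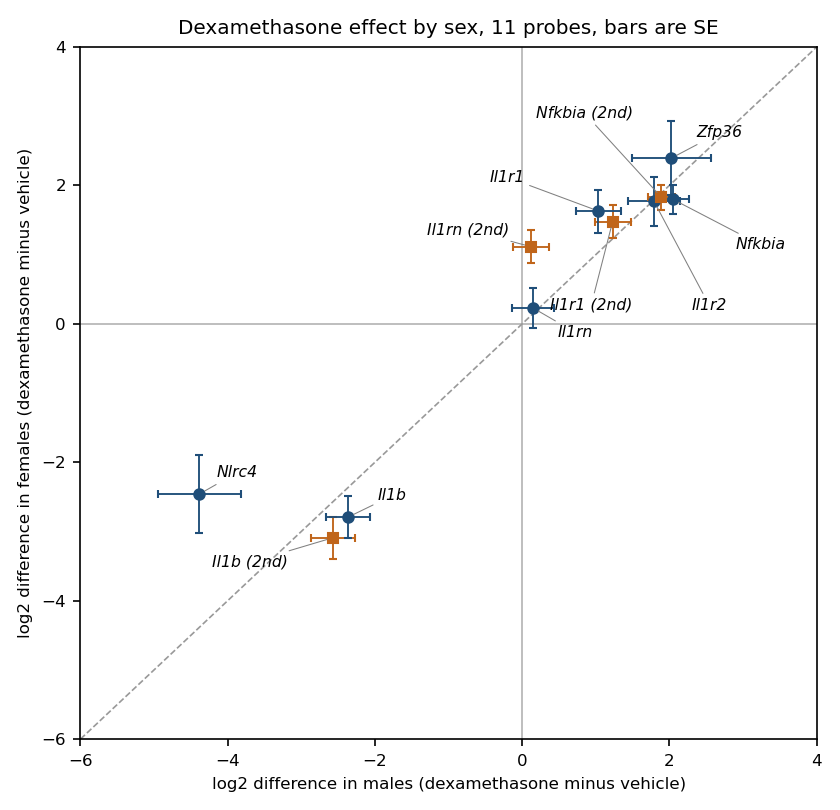
Log2 difference between dexamethasone and vehicle in males (horizontal axis) and in females (vertical axis) of 11 probes of 7 members, with SE bars from limma and 3 arrays per group; circles are brightest probes, squares second probes, and the dashed line marks equal effects. Nlrc4 (-4.38 in males, -2.46 in females) and the second Il1rn probe (0.12 and 1.12) lie farthest from the line.

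No member was called for a difference between the sexes in the response, against 0.0288% of all genes (7 genes, 0.0123% called higher and 0.0165% lower in females). By limma's test without adjustment 1 of the 7 members, Nlrc4, had a p under 0.05 (0.0360). Its female minus male effect was 1.93 ± 0.80 (95% interval 0.15 to 3.70, adjusted p = 0.468). The intervals of the others were -1.37 to 0.51 for Il1b, -0.38 to 1.57 for Il1r1, -1.13 to 1.10 for Il1r2, -0.81 to 0.98 for Il1rn, -0.92 to 0.41 for Nfkbia and -1.32 to 2.06 for Zfp36. Intervals of this width do not show that the sexes respond alike. No member was called between the sexes after vehicle (1.71% of all genes, 0.741% higher and 0.967% lower in females). The same held after dexamethasone (2.31%, with 1.28% higher and 1.03% lower). Under an unadjusted p of 0.05 in limma's test were 2 members (Nlrc4 and Il1b) after vehicle and 0 members after dexamethasone. The shares of all genes under that unadjusted threshold were not counted.

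The arrays lay on 5 slides, and the groups were spread unevenly over them: replicate 3 of every group was on slide 5, male dexamethasone 1 shared slide 1 with male vehicle 2, male dexamethasone 2 shared slide 2 with female vehicle 1 and 2, female dexamethasone 1 and 2 were together on slide 4, and slide 3 carried only male vehicle 1. With slide as a fixed block all 6 male calls remained, with log2 differences of -2.26 for Il1b, -4.75 for Nlrc4, 2.25 for Nfkbia, 2.16 for Zfp36, 1.19 for Il1r1 and 1.86 for Il1r2. In females Il1b (-3.29, limma adjusted p = 0.0105), Nfkbia (1.71, 0.0108) and Zfp36 (2.76, 0.0360) remained called, while Nlrc4 (-1.77, 0.138), Il1r1 (1.31, 0.0559) and Il1r2 (1.87, 0.0947) did not. The female comparison then rests mostly on slide 5, since the other female vehicle and female dexamethasone arrays share no slide. With slide as a random block the 6 called members of each sex stayed called.

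Within single slides, where each group is 1 array and there is no test, the directions of all called members were the same as read. Il1b differed by -2.94 on slide 1 and -1.81 on slide 5 in males and by -3.51 on slide 5 in females. Nlrc4 differed by -4.99 and -5.20 in males and by -2.46 in females. Nfkbia differed by 2.02 and 2.35 in males and by 1.60 in females, and Zfp36 by 1.95 and 2.72 in males and by 3.1 in females. Il1r1 differed by 0.79 and 1.46 in males and by 1.19 in females, and Il1r2 by 1.88 and 1.29 in males and by 1.32 in females. Some slide 5 readings were not well above background: Zfp36 and Il1r2 on the vehicle arrays of each sex, and Nlrc4 on the dexamethasone arrays of each sex. Il1r2 was also undetected on the male dexamethasone array of slide 5, so its male difference there carries no direction. Il1rn turned its sign between the slides in males, with -0.51 on slide 1 and 0.66 on slide 5.

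**Figure D3:**
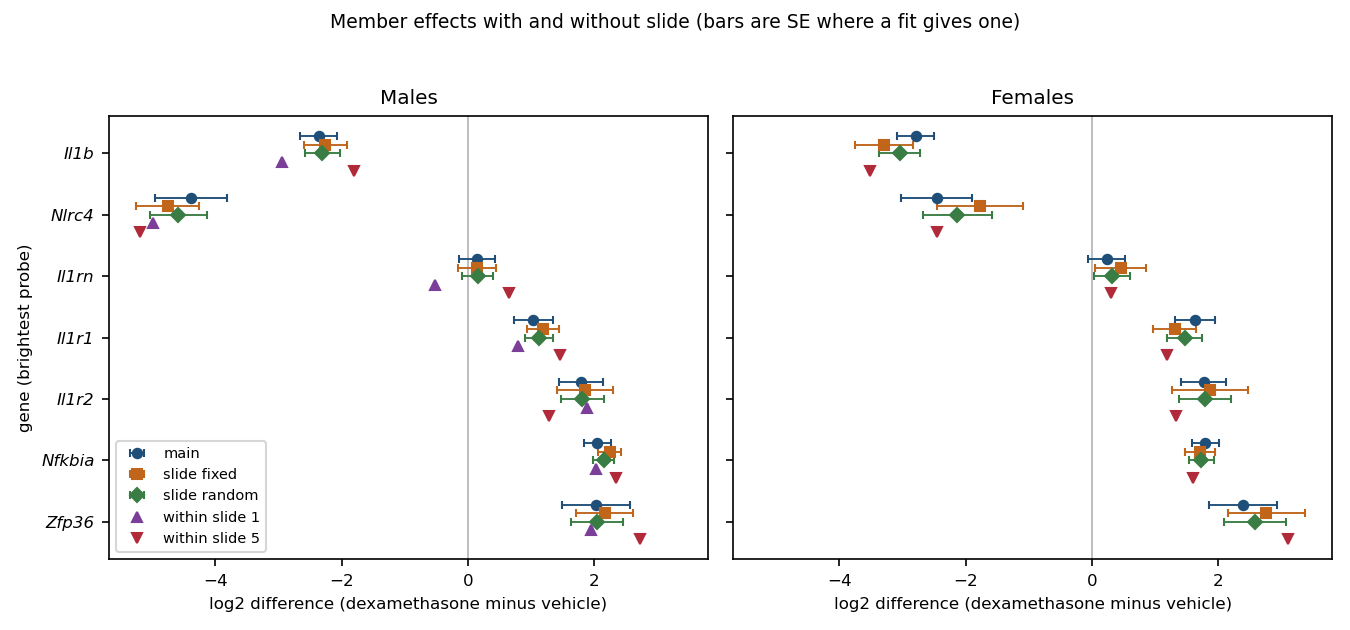
Log2 difference between dexamethasone and vehicle (horizontal axis) of the 7 tested members (vertical axis) in males and in females, without a slide term (main), with slide as a fixed or random block, and within slides 1 and 5; bars are SE where a fit gives one. Il1b and Nlrc4 stay below 0 and Nfkbia, Zfp36, Il1r1 and Il1r2 above 0 at every setting shown, and Il1rn lies on both sides of 0 in males.

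Levels in whole liver can also move with the cells present, and in these bulk samples fewer cells of a type and less RNA per cell cannot be told apart. Over all genes 9.34% were called higher and 10.8% lower in males, and 11.7% higher and 12.6% lower in females. Of 13 Kupffer cell and macrophage markers, 12 had a negative difference in males and 10 in females. Near the shares of all genes, 2 of 13 were called lower in each sex: Tyrobp (-1.02 and -1.38) and Aif1 (-1.23 and -1.31). The summed level of these markers, in units of the array's 75th percentile, ran from 95.4 to 132 in male vehicle and 59.3 to 152 in male dexamethasone, and from 101 to 168 in female vehicle and 69.4 to 135 in female dexamethasone, so both sexes overlapped. The median difference of the 13 markers was -0.54 in males and -0.54 in females, against -2.37 and -2.79 for Il1b. Of 6 measured neutrophil and monocyte markers 2 fell in males and 3 in females, among them S100a8, which fell by 2.64 and 3.21. Their summed level ran from 1.19 to 1.79 in male vehicle and 0.56 to 0.90 in male dexamethasone, and from 1.41 to 3.29 in female vehicle and 0.38 to 1.07 in female dexamethasone, without overlap. The neutrophil granule genes Camp and Ngp were not above background on any array. Of 6 measured T and NK cell markers 4 fell in males and 5 in females, with sums of 3.58 to 4.96 against 1.93 to 2.27 in males and 3.90 to 5.92 against 1.60 to 1.85 in females, and Cd3e and Cd2 were never above background. Of 5 measured endothelial markers Lyve1 rose in both sexes (1.66 and 1.11) and Kdr fell in females by 2.29, with -1.09 in males (limma adjusted p = 0.0610). Their sums were 33.9 to 47.2 against 22.1 to 30.6 in males and 41.6 to 68.1 against 9.76 to 24.5 in females, again without overlap. Such a sum weighs the brightest markers most. By marker, 3 endothelial differences were positive and 2 negative in males (median 0.15). In females 2 were positive and 3 negative (median -0.65). Of 5 stellate cell markers Lrat and Pdgfrb fell in males (by 1.08 and 1.40). The other 3 had positive differences in males, none called, and the list median was 0.03. In females Lrat, Pdgfrb and Des fell (by 2.15, 2.30 and 0.63), all 5 differences were negative and the median was -0.63. The stellate sums were 21.9 to 26.1 against 16.9 to 19.0 in males and 22.7 to 28.6 against 10.1 to 15.2 in females, without overlap. The part of all these markers in the changes of the members was not tested.

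The wider pathway was described with 7 lists written from textbook knowledge, 116 genes in all, of which 85 were measured; 16 more had a probe that did not pass the filter and 15 had no probe by name. In males 14 of the 85 rose and 28 fell (49.4% called), and in females 11 rose and 27 fell (44.7%), against 20.1% and 24.4% of all genes. Without the members the shares were 46.2% and 41.0% of 78 genes. The median log2 difference of the 85 genes was -0.38 in males and -0.27 in females, against 0.01 and -0.08 over all genes. These lists were written with earlier results of these data known, so their shares are not independent evidence.

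In the IL-1 family, 10 of 15 genes were measured; 2 rose and 4 fell in males, and 2 rose and 3 fell in females. The 2 that rose were the receptor genes Il1r1 and Il1r2. Beside Il1b the ligand genes Il33, whose product is an alarmin, and Il1a fell: Il33 by 1.85 ± 0.32 in males and 1.96 ± 0.32 in females, and Il1a by 1.21 ± 0.31 in males and 1.78 ± 0.31 in females. The male call of Il1a (limma adjusted p = 0.0193) ended without male vehicle 2 (-1.03, adjusted p = 0.0691), male dexamethasone 2 (-1.11, 0.0650) or male dexamethasone 3 (-1.21, 0.0527). The median difference of the list was -0.51 in males and -0.35 in females.

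In the TNF pathway 14 of 17 genes were measured, with 2 higher and 4 lower in males and 1 higher and 4 lower in females (medians -0.56 and -0.30). Tnfrsf1b, the gene of TNF receptor 2, fell by 1.30 ± 0.21 in males and 1.07 ± 0.21 in females. Birc3, a ubiquitin ligase of the receptor complex, rose by 1.24 ± 0.17 and 0.75 ± 0.17. Ltb, a lymphotoxin gene, fell by 1.65 ± 0.32 in females (limma adjusted p = 0.00412; 0.151 with slide as a fixed block) and was at -0.91 ± 0.32 in males (adjusted p = 0.0711). The male difference of Ltb was called with normexp (-0.82, adjusted p = 0.0411), and on leaving out female vehicle 1 (0.0172) or 2 (0.0227), which changes only the shared spread. Ripk1, a kinase of the receptor complex, fell by 1.09 ± 0.30 in males (adjusted p = 0.0283) and was at -0.16 ± 0.30 in females (adjusted p = 0.746). The male call of Ripk1 ended under 5 other settings (adjusted p up to 0.269 with normexp) and on leaving out male dexamethasone 1 (-1.03, 0.0810), 2 (-1.08, 0.0712) or 3 (-1.16, 0.0555) or male vehicle 2 (-1.08, 0.0693) or 3 (-0.92, 0.101).

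Of the adaptors and kinases downstream of the IL-1 and Toll-like receptors 11 of 16 were measured, with 2 higher and 2 lower in males and 0 higher and 1 lower in females (medians 0.00 and 0.18). At an unadjusted p under 0.05 in limma, 3 were higher and 2 lower in females. Tlr2, a receptor for bacterial lipoproteins, fell by 2.16 ± 0.34 in males and 1.56 ± 0.34 in females. Tollip, an inhibitor of IL-1 receptor kinases, rose by 0.78 ± 0.13 in males, with 0.29 ± 0.13 in females (adjusted p = 0.136), on its brightest probe. The second Tollip probe was called in neither sex (0.20 ± 0.21, limma adjusted p = 0.590, and 0.19 ± 0.21, adjusted p = 0.549). Irak4, the first kinase recruited to the receptor, fell by 0.86 ± 0.22 in males, with -0.27 ± 0.22 in females, and Map3k7, which encodes the kinase TAK1, rose by 0.66 ± 0.19 in males, with 0.44 ± 0.19 in females. The probes of Map3k7 disagreed on the sex: the second was at 0.25 ± 0.19 in males (limma adjusted p = 0.429) and rose by 0.86 ± 0.19 in females (adjusted p = 0.00960). The female difference of Map3k7 was called with array medians (0.64, adjusted p = 0.0319), the mean of its probes (0.65, 0.0119) and the replicate block (0.44, 0.0254). The male call of Irak4 ended with normexp (-0.26, adjusted p = 0.183) and on leaving out male dexamethasone 3 (-0.66, 0.0752) or male vehicle 1 (-0.86, 0.0523) or 2 (-0.69, 0.0756). That of Map3k7 ended with normexp (0.0666), without the filter (0.0732), with the mean of its probes (0.46, 0.0611), and when male dexamethasone 1 (0.57, 0.103), male dexamethasone 2 (0.66, 0.0743), male vehicle 1 (0.70, 0.0574), male vehicle 2 (0.72, 0.0521) or male vehicle 3 (0.56, 0.109) was left out.

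Of the NF-kappaB subunits, inhibitors and kinases 14 of 16 were measured, and 2 rose in each sex while 4 fell in males and 3 in females (medians -0.21 and -0.02). The 2 that rose were Nfkbia and Nfkbiz, a nuclear IkappaB protein gene, which rose by 1.38 ± 0.29 in males and 1.01 ± 0.29 in females. Nfkbie, the gene of another cytoplasmic inhibitor, IkappaB epsilon, moved the other way and fell by 1.48 ± 0.23 in males and 0.86 ± 0.23 in females. Nfkb1, the gene of the p50 subunit and its precursor, fell by 0.74 ± 0.14 and 0.86 ± 0.14. Its second probe fell by 0.83 ± 0.16 in males and was at -0.43 ± 0.16 in females (limma adjusted p = 0.0784). In females the call of Nfkbiz (limma adjusted p = 0.0281) ended without female vehicle 1 (1.04, adjusted p = 0.0627), 2 (1.03, 0.0689) or 3 (0.96, 0.0632) or female dexamethasone 1 (0.92, 0.0937) or 2 (1.03, 0.0722), and that of Nfkbie (0.0195) without female vehicle 1 (-0.69, 0.0739) or 2 (-0.85, 0.0594) or female dexamethasone 1 (-0.78, 0.0713). With slide as a fixed block the female calls of Nfkbie (-0.57, adjusted p = 0.260) and Nfkb1 (-0.80, 0.0514) were lost.

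Of the ubiquitin and messenger decay feedback genes 10 of 14 were measured; 4 rose and 2 fell in males, and 4 rose and 3 fell in females (medians 0.24 and -0.16). Tsc22d3, which encodes the glucocorticoid-induced protein GILZ that binds NF-kappaB, rose by 3.20 ± 0.24 in males and 2.84 ± 0.24 in females. Dusp1, a phosphatase of p38 and JNK kinases, rose by 2.76 ± 0.62 and 2.24 ± 0.62. Zfp36 stood apart from its paralogue Zfp36l1, which fell by 1.60 ± 0.27 in males and 1.52 ± 0.27 in females. The female call of Dusp1 (limma adjusted p = 0.0244) ended with slide as a fixed block (2.05, adjusted p = 0.10) and without female vehicle 3 (1.65, 0.0671), female dexamethasone 1 (2.11, 0.0771) or female dexamethasone 2 (1.98, 0.0906).

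Of 22 target genes of NF-kappaB 15 were measured, and 1 rose and 9 fell in each sex (medians -1.57 and -1.82, or -1.44 and -1.07 with undetected groups at their bound). Cxcl10, a chemokine gene, was not well above background on any dexamethasone array. It was at least 9.40-fold lower in males and at least 13.0-fold lower in females. Its limma adjusted p-values (1.13e-05 and 1.23e-05) come from the undetected readings as read and do not test these bounds. Ccl2, the gene of a monocyte chemokine, was at least 3.08-fold lower in males and at least 4.37-fold lower in females. The bounds of Cxcl10 and Ccl2 hold only for the main processing. Over the other settings the smallest log2 differences of Cxcl10 were -1.41 in males and -1.79 in females. Those of Ccl2 were -0.62 and -0.97. Cxcl1, the gene of a neutrophil chemokine, fell by 4.10 ± 0.89 in males, with -2.10 ± 0.89 in females (adjusted p = 0.114, and called without male vehicle 2, adjusted p = 0.0158, or male vehicle 3, 0.0480, whose omission changes only the shared spread). Its male difference was -7.41 on slide 1 and -1.58 on slide 5. Gadd45b, a stress gene that glucocorticoids are also known to raise, went against the list and rose by 4.39 ± 0.38 in males and 3.53 ± 0.38 in females.

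Of 16 inflammasome genes 11 were measured, with 1 higher and 3 lower in males and 1 higher and 4 lower in females (medians -0.90 and -0.97). Pycard, the adaptor ASC that links sensors such as NLRC4 to caspase-1, fell by 1.65 ± 0.21 in males and 2.12 ± 0.21 in females on its brightest probe. Its second probe disagreed in males, at 0.28 ± 0.29 (limma adjusted p = 0.586), and fell by 1.04 ± 0.29 in females (adjusted p = 0.0244). Casp1, the gene of caspase-1, fell by 1.20 ± 0.31 in females (limma adjusted p = 0.0196) and was at -0.92 ± 0.31 in males (adjusted p = 0.0657). The male difference of Casp1 was called with slide as a fixed block (-0.97, adjusted p = 0.0276) or random block (-0.93, 0.0156), the replicate block (0.0425), normexp (-0.44, 0.0436) and without female dexamethasone 3 (0.0148). Gsdmd, whose product forms the pores through which IL-1 beta leaves cells, rose by 1.31 ± 0.17 in males and 0.68 ± 0.17 in females. The female call of Casp1 ended with array medians as the scale (-0.99, adjusted p = 0.0515) and without female vehicle 1 (-1.05, 0.0703), and that of Gsdmd with slide as a fixed block (0.74, 0.0703) and without female vehicle 1 (0.60, 0.0582) or female dexamethasone 1 (0.65, 0.0508).

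**Figure D4:**
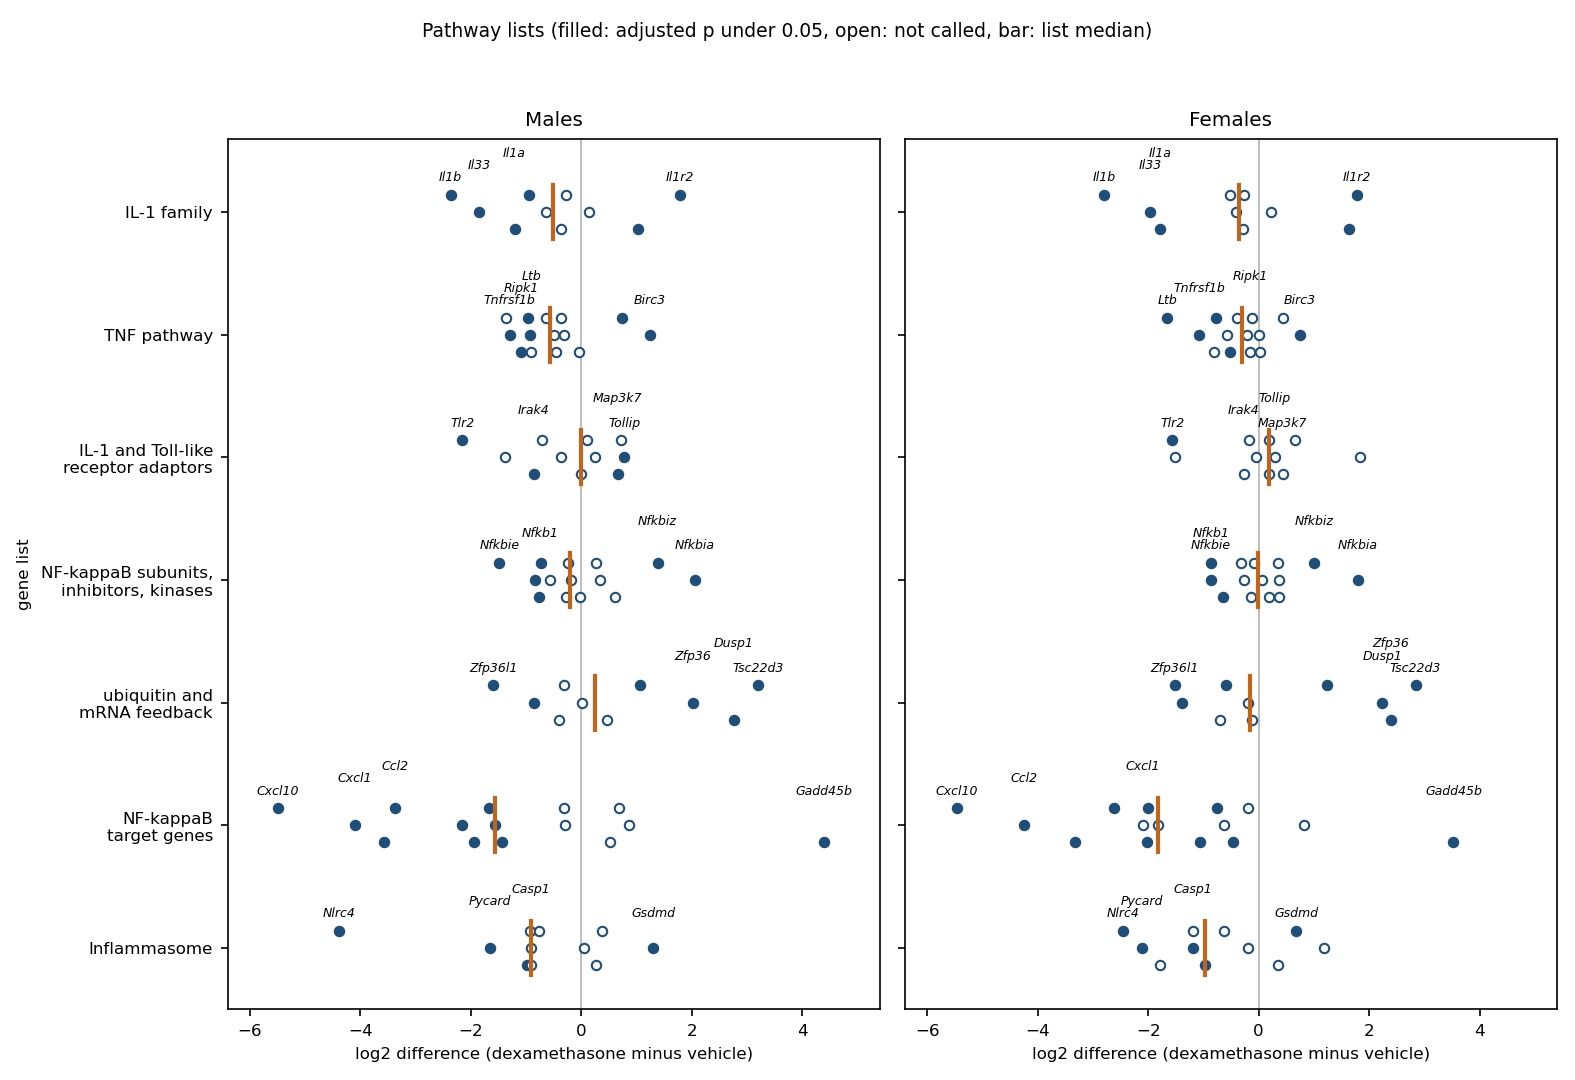
Log2 difference between dexamethasone and vehicle (horizontal axis) of the 85 measured genes in 7 lists (vertical axis) in males and in females; each point is a gene, filled where its adjusted p was under 0.05, with the list median as a bar and the named genes labelled. The target genes lie mostly below 0 (medians -1.57 and -1.82), and Nfkbia, Nfkbiz, Tsc22d3, Dusp1 and Zfp36 above it.

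The genes whose values followed each member most closely over the 12 arrays were named by Pearson's r among 11982 genes with a symbol; the 12 arrays hold the 4 groups, so r mostly reflects the treatment. Il1b was followed by Ets2 (r = 0.986), RT1-Db1 (0.982) and Sirpa (0.979), Nlrc4 by genes including Bnc1 (0.957) and Icam1 (0.955), and Nfkbia by Ass1 (0.989), Smarcd2 (0.987) and Tnk2 (0.987). Zfp36 was followed by Nrbf2 (0.970), Nup155 (0.967) and Uvrag (0.958), Il1r1 by Nudt4 (0.969), Psmc1 (0.968) and Gpatch11 (0.967), and Il1r2 by Elovl3 (0.957), Utp6 (0.951) and Hspa13 (0.948). For Il1rn, which was not called, the highest were Cideb (0.922), Mrpl4 (0.897) and Usp36 (0.864). Of these, Sirpa, an inhibitory receptor of myeloid cells, fell by 2.76 ± 0.27 in males and 2.73 ± 0.27 in females, and Ass1, a urea cycle enzyme gene, rose by 2.01 ± 0.17 and 2.02 ± 0.17.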

How the data were processed

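Liver RNA of the 4 groups was hybridised to 12 rat arrays of Agilent, labelled with Cy3 alone. Per the file headers and the submitters' processing notes, the authors extracted the spot intensity with Agilent Feature Extraction 9.1, which subtracts background but does not scale between arrays. The authors also deposited a table of log10 values; its scaling and centring are unknown, its array medians ran from 1.49 to 1.52, and it correlated with log10 of the scanner values at 0.996 or more. It served as an alternative. No read depth exists for arrays, and their number limits the precision.

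From the scanner values, log2 intensity minus the array's 75th percentile was taken, outlier spots were left out, and repeated spots were averaged per probe. A probe was kept if 3 or more of the 12 arrays showed it well above background and each group had 2 or more usable values, and the brightest probe stood for a gene. Group means were fitted with limma 3.58.1 in R 4.3.3 in one model over all 4 groups with 5 contrasts, and p-values were adjusted by Benjamini-Hochberg at 0.05. A separate fit over probes gave the second probes. The fit was tried on simulated data with independent arrays and no slide effect, so that trial does not cover the slides. Gene names are those of the array design, updated through RefSeq where the accession, gene ID, symbol or an older symbol matched (20255 of 41012 probes).

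Members and lists were chosen with earlier results of these data known. All members are named, as are up to 4 called genes per list with the largest difference and the 3 genes most correlated with each member, of which 1 is not reported here; S100a8 and the other cell type markers come from the marker lists. Slides nest within scan days, so the slide block covers both. The labels' replicate numbers were not taken as pairs. Alternatives were other scalings, normexp, the deposited table, other filters, the mean of probes, slide and replicate blocks, and each array left out.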

Additional observations from a re-analysis of the deposited data

How the results depend on the processing

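Precision is limited by 3 pooled arrays per group, and dim probes (Zfp36, Il1r2 and Nlrc4 after dexamethasone) lie close to background, so their fold changes are less certain than those of Nfkbia. With slide as a fixed block 3 of the 6 female members remained called, and 17 rather than 27 list genes were called lower in females. Between the sexes after vehicle, 1 member (Nlrc4) was called with normexp background correction and without male dexamethasone 3, where otherwise there was none. Leaving out each array in turn gave 4 to 6 called members in males, 6 in females, 0 for the difference of the sexes' effects, 0 to 1 between the sexes after vehicle and 0 after dexamethasone. The same gave 9 to 16 list genes higher and 23 to 30 lower in males, and 8 to 12 higher and 19 to 29 lower in females; the 9 came without male vehicle 3.

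Signs turned only where no call was made. Il1rn in males ran from -0.055 to 0.36 with an array left out. The difference of the sexes' effects on Il1r2 was 0.14 with array medians, 0.15 with quantile normalization, 0.11 in the deposited table, 0.011 with slide as a fixed block, and -0.44 to 0.20 with an array left out. That on Il1rn ran from -0.14 to 0.29 with an array left out, and that on Zfp36 was -0.10 with normexp and -0.18 to 0.94 with an array left out. In females Irak4 was 0.11 with slide as a fixed block, and Ripk1 was 0.048 with array medians and -0.38 to 0.16 with an array left out. The cause was not tested. With array medians the calls for a difference of the sexes' effects over all genes were 4 higher and 3 lower in place of 3 and 4.

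Same-numbered arrays were not consistently alike: 11 of 18 same-number pairs correlated above 0.1 in their deviations, 7 of 12 arrays correlated best with their own number, and number 3 also shares a slide. Arrays of the same slide were alike: 9 of 9 same-slide pairs of different groups correlated above 0.1. The correlation fitted for slide as a random block was 0.51, and the main fit has no slide term. With the replicate number as a block 6 members were called in each sex and 0 in each of the other comparisons, with 15 list genes higher and 31 lower in males and 14 higher and 32 lower in females.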

Other observations

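Some pathway genes outside the named set, chosen after their values were seen, moved strongly. Tnfaip2, a TNF-inducible gene, fell by 3.57 in males and by 3.33 in females. Irf1, a transcription factor of the interferon response, fell by 1.94 and 2.01, and Csf1, the growth factor gene of macrophages, fell by 1.57 and 2.03. Icam1, a leukocyte adhesion receptor, fell by 1.67 and 1.07. After dexamethasone, 2 of the 85 list genes were called higher in females than in males (limma, Benjamini-Hochberg), a share near the 2.31% of all genes called in that comparison: Fadd, a death receptor adaptor (0.90, adjusted p = 0.0171), and Il18bp, which encodes the binding protein that neutralises IL-18 (0.83, adjusted p = 0.0218).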
